A study of Mus musculus with 12 samples.

Results

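The genes described here are 36 interferon-stimulated genes, followed through peak lists of open chromatin from 6 populations of mouse liver and blood myeloid cells. The members were taken from a named list of genes, and a peak was given to a member when its centre lay inside the gene or when the member was the nearest protein-coding gene within 100 kb. The 36 genes stand beside 21900 protein-coding genes in the RefSeq table, and they took 174 of the 100354 regions that the 6 lists hold once overlapping peaks are merged. They fall into 15 effectors against virus, 9 sensors and signalling proteins, and groups of 3 for the ISG15 system, the guanylate-binding proteins, antigen processing, and a chemokine with other genes.

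ATAC-seq, whose transposase cuts and tags accessible DNA, was done on cells sorted from C57BL/6J mice. KC-H was F4/80-high, Tim4-positive Kupffer cells, the liver's own resident macrophages, from mice on the control diet, and KC-N was the same sort from mice on the NASH diet, a diet model of fatty liver inflammation. All other groups came from NASH-diet mice: KN-RM was F4/80-high and Tim4-negative Kupffer cells, Ly6CHi-RM and Ly6CLo-RM were recruited CD11b-high liver macrophages with high or low Ly6C, and Blood-Ly6CHi-NASH was Ly6C-high monocytes of the blood. Each group had 2 libraries and 1 peak list made from both, so no value per library exists and no difference below has a replicate check. No transgene or induced deletion is named in the labels, and the age of the mice and any pooling of animals are not stated in these sources. Because the cells are bulk sorts, a region open in fewer cells and a region less open in every cell cannot be told apart.

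Interferons are secreted when a cell senses viral nucleic acid or bacterial products. Type I interferons bind a receptor whose kinases activate STAT2, which works with IRF9 in a complex that binds the interferon-stimulated response element, ISRE, near gene starts. Many of these genes have a basal level in resting macrophages, before any stimulus.

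The lists differed in length, and the marker genes followed the sort labels in part. The blood, Ly6CHi-RM, Ly6CLo-RM, KN-RM, KC-N and KC-H lists held 69616, 61492, 54621, 34293, 50550 and 63501 peaks. Read depth per library is not given in these sources. The 8 Kupffer cell markers held 33, 50 and 108 peaks in the KN-RM, KC-N and KC-H lists against 17 to 24 in the others. Vsig4 departed from this, with 6, 4 and 1 in the blood, Ly6CHi-RM and Ly6CLo-RM lists against 1, 2 and 5. Marco had 0 in KN-RM, 7 in KC-N, 15 in KC-H and 1 in each other list. The 6 monocyte markers held 49, 46 and 34 peaks in the blood, Ly6CHi-RM and Ly6CLo-RM lists. They held 26, 32 and 37 in KN-RM, KC-N and KC-H, so KC-H exceeded Ly6CLo-RM. Timd4, which encodes Tim4, had 17 peaks in KC-H, 1 each in KC-N and Ly6CLo-RM and 0 in KN-RM, so the Tim4-positive sort of NASH livers had few peaks at its own defining gene. The 4 hepatocyte markers held 13 peaks in the blood list, 11 of them at Alb, and 1 to 3 in the others. Markers of other cell types also differed between the F4/80-high lists and the rest. The 5 dendritic cell markers held 30, 27 and 33 peaks in the blood, Ly6CHi-RM and Ly6CLo-RM lists against 10, 12 and 17. At Flt3 the counts were 12, 11 and 11 against 1 in each. The 4 liver endothelial markers held 11, 9 and 10 against 9, 18 and 24. The higher counts lay at Stab2, with 1 in each of the first lists and 7, 13 and 19 in the F4/80-high lists. Kdr went the other way, with 7, 5 and 7 against 2, 3 and 2. Clec4g and Lyve1 had 0 to 2 peaks per list. The part of list length and of other cell types in the results below was not tested.

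The element searched for was GAAA, any 2 bases and GAAA again, read on both strands in RefSeq promoter windows of GRCm38.p6 that run from 250 bases before a start to 50 after it. The first 4 stretches show how the elements sit in the full lists, which differ in length. Elements were under a peak in every list at Isg15 and Ifit1, in all but KN-RM at Gbp5, and in the blood and KC-H lists only at Oas1a. Each stretch is written 5′ to 3′ along the gene and ends at the base before the start. Capitals mark the element, which reads TTTC, 2 bases and TTTC where it lies on the opposite strand.
Isg15, 100 bases, chr4:156200819-156200918, minus strand: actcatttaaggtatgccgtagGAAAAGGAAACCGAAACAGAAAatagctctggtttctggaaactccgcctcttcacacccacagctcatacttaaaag
Ifit1, 250 bases, chr19:34640639-34640888, plus strand: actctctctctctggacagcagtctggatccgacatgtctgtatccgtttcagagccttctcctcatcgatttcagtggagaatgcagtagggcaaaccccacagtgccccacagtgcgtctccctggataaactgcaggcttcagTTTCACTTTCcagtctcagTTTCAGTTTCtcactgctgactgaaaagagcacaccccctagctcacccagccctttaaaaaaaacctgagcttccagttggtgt
Gbp5, 250 bases, chr3:142496684-142496933, plus strand: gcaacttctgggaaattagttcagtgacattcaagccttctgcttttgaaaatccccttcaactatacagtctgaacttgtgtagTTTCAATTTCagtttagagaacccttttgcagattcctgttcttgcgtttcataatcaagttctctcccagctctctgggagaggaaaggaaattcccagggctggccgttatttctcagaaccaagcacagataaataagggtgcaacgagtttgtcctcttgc
Oas1a, 100 bases, chr5:120907526-120907625, minus strand: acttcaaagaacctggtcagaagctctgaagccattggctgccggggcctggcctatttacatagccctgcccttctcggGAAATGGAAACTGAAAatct

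The next sites of 30 bases are read along the strand that carries the element in capitals, and the coordinates are those of the element. They contrast elements under a peak of all 6 lists at Gbp2 and Oas3, of 5 lists at Rsad2 (all but KC-N) and of KN-RM alone at Bst2 with elements of Cxcl10, Stat2 and Ifit3 that no list covered.
Gbp2, chr3:142620604-142620613: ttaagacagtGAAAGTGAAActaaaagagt
Oas3, chr5:120777725-120777734: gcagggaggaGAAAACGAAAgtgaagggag
Rsad2, chr12:26456563-26456572: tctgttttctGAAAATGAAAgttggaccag
Bst2, chr8:71537593-71537602: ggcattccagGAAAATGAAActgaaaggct
Cxcl10, chr5:92349093-92349102: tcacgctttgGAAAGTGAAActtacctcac
Stat2, chr10:128270276-128270285: ctagggaaagGAAACTGAAAccagggtgcg
Ifit3, chr19:34583407-34583416: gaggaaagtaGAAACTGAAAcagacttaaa
Ifit3, chr19:34583373-34583382: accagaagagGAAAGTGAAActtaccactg

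The element was common in these promoters. It was found in 14 of the 27 members with a RefSeq window (51.9%, 95% Wilson interval 34.0 to 69.3, counting error only) against 3.94% of 17492 genes. With 1 mismatch allowed, 24 of 27 members had a match (88.9%) against 36.1% of genes. The 14 genes were Bst2, Cxcl10, Eif2ak2, Gbp2, Gbp3, Gbp5, Ifih1, Ifit1, Ifit3, Isg15, Oas1a, Oas3, Rsad2 and Stat2. The gamma-activated site TTCNNNGAA was in 7 of 27 windows (25.9%; 8.92% of genes), and the AP-1 motif TGANTCA in 7 (25.9%; 8.12%). The PU.1 motif GAGGAAGT was in 1 window (3.70%; 3.64%) and the NF-kB motif (GGGA, any base and TTTCC) in 1 (0.48% of genes). The motifs were searched separately, and matches of different motifs may overlap in a window. A match describes letters only and is not a measured binding site.

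At the elements themselves, the members' sites were more often inside a peak than the elements of all windows, which include the members. Of 21 elements at the 14 members, 9 lay under a peak of all 6 lists (42.9%) against 14.4% of the 750 elements in all windows, and 6 lay under no peak (28.6% against 71.7%). The other 6 were covered in some lists: Oas1a (2 elements, blood and KC-H), Bst2 (2, KN-RM), Gbp5 (all but KN-RM) and Rsad2 (all but KC-N). At Bst2 and Rsad2 a start peak existed in all 6 lists, so the differences there are shifts of a 200 bp peak by less than its own width. The uncovered elements of Cxcl10 and Stat2 likewise lay beside a start peak that all 6 lists held, and those of Ifit3 beside the KC-H peaks. The 2 uncovered elements of Gbp3 lay 39 and 45 bases before a start. On one side was a peak of the blood and KC-H lists only, and on the other a region inside the gene in all 6 lists. At Gbp5 and Oas1a, by contrast, the lists without a peak over the element had no peak over the promoter window at all. Peaks over the 3 Isg15 elements had their centres within 44 bases of each element in every list. The 9 elements under a peak of all 6 lists include these 3 and 2 of Ifit1, so they are not independent. Member windows as a whole, with or without an element, were covered in all 6 lists at 74.1% against 40.8% of genes. The part of this in the difference at the elements was not tested.

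**Figure D1:**
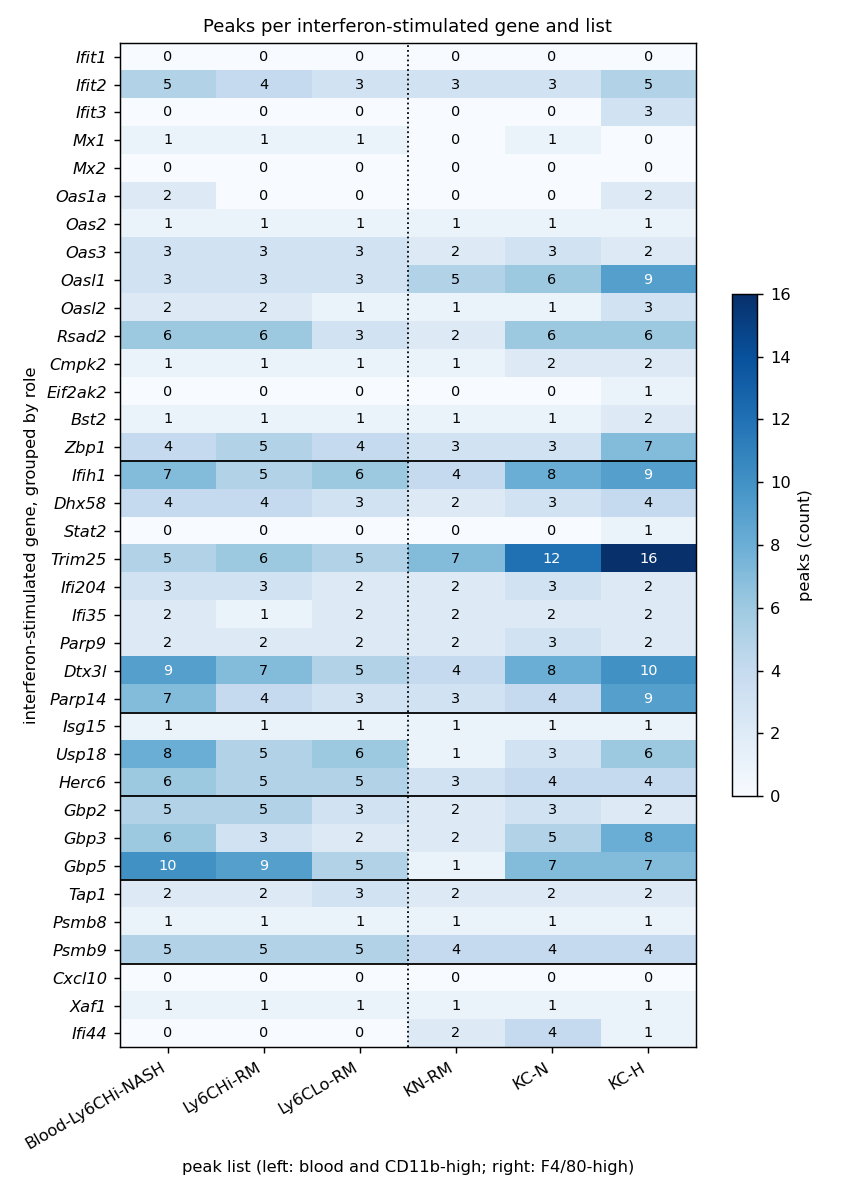
Number of peaks (colour and printed count) for each of the 36 interferon-stimulated genes (rows, grouped by role between solid lines) in the 6 peak lists (columns; the dotted line divides the blood and CD11b-high lists from the F4/80-high lists). Trim25 runs from 5 to 16 peaks, Ifi44 has peaks on the F4/80-high side only, and Gbp5 has 1 peak in KN-RM against 5 to 10 elsewhere.

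Counted over all members, the lists held 112 peaks at interferon-stimulated genes in the blood list (0.161% of its peaks, 0.134 to 0.194), 95 in Ly6CHi-RM (0.154%), 80 in Ly6CLo-RM (0.146%), 64 (0.187%) for KN-RM, 104 (0.206%, 0.170 to 0.249) for KC-N and 134 (0.211%, 0.178 to 0.250) for KC-H. The 3 F4/80-high lists thus had the higher shares, with intervals that overlap those of the other lists. When the members were thinned to 1 gene per cluster of neighbours within 200 kb, which left 23 genes, the F4/80-high shares were 0.128 to 0.145% and the others 0.106 to 0.113%. A peak was present at 29, 28, 28, 28, 29 and 32 of the 36 members in the blood, Ly6CHi-RM, Ly6CLo-RM, KN-RM, KC-N and KC-H lists, against 68.1, 65.7, 63.7, 54.0, 60.2 and 64.4% of all genes. KN-RM, the shortest list, thus reached as many of the members as the longer Ly6CHi-RM and Ly6CLo-RM lists.

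Most of these genes were open at their start in every population. Among the 27 members with a window, 24, 22, 21, 21, 22 and 24 had a peak over it in the same order of lists (88.9, 81.5, 77.8, 77.8, 81.5 and 88.9%), against 50.3, 48.9, 48.0, 42.8, 46.5 and 49.7% of genes. The window was covered in all 6 lists at 20 members (74.1%, 55.3 to 86.8) against 40.8% of genes, and in no list at 1, Oasl2, against 46.4%. Of the 9 members without a window (Mx1, Mx2, Oas2, Zbp1, Dhx58, Ifi204, Parp9, Parp14 and Usp18), 8 had a peak within 1 kb of either end of the gene in all 6 lists, against 38.5% of such genes. Parp14 was the exception and lacked one in Ly6CLo-RM and KN-RM.

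The start peaks of 6 members were in some lists and not others. Ifit3, a relative of Ifit1, had a start peak in KC-H alone. The peak centred 11 bp before the start had a score of 36, and a second centred 283 bp before it had 34. The score is a whole number given to each peak, read here as the authors' pipeline score and used to rank peaks within a list. Its median is 34 in KN-RM and 48 in KC-H, so both Ifit3 peaks belong to the lower-scored 50% of KC-H. Oas1a, which makes the 2′-5′ oligoadenylates that switch on RNase L, had one in the blood list (score 30) and in KC-H (score 30). Ifi44 had one in KC-N alone (score 28). Gbp5 had one in every list but KN-RM, with scores of 34, 34, 41, 38 and 48 in the blood, Ly6CHi-RM, Ly6CLo-RM, KC-N and KC-H lists. Apart from Gbp5 in Ly6CLo-RM, KC-N and KC-H, each of these scores was below the median of its list. The differences also depended on list length. With every list cut to the length of KN-RM by score, no list had a peak over the window of Ifit3, Oas1a, Ifi44 or Gbp3. The Gbp5 window then had none in the blood, Ly6CHi-RM and KN-RM lists, and those of Isg15 and Gbp2 had none in the blood list.

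For Gbp3 and Psmb8 the list-to-list difference was a matter of position. A peak over a Gbp3 window was found in the blood and KC-H lists. All 6 lists held a region inside the gene, centred 201 bp past the nearest of its RefSeq starts. Psmb8 had its window covered in the blood, Ly6CHi-RM and KN-RM lists, and all 6 lists held a region centred 151 bp inside it. With a distance of 500 bp from the start in place of the window, 22 of 27 members were open in all 6 lists, against 43.9% of genes, and Gbp5, Ifi44, Ifit3, Oas1a and Oasl2 were not.

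The effectors against virus ran from no peak to 9 per list. Ifit1, which holds viral RNA lacking the host cap mark, and Mx2, a pseudogene in the RefSeq table, took no peak in any list, and neither did the chemokine gene Cxcl10. Stat2, part of the factor that binds the ISRE, and Eif2ak2, the kinase PKR that stops translation on sensing double-stranded RNA, took 1 peak each, both in KC-H. The low counts follow from the rule. Mx2, as a pseudogene, could take only peaks centred inside it, although a peak lay within 1 kb of one of its ends in every list. The start peaks of Ifit1, Cxcl10, Stat2 and Eif2ak2, present in all 6 lists, lay inside another annotated gene and were counted there. At the Stat2 start the peak was in the top 5.31% of every list, with scores of 180, 174, 134, 86, 124 and 191 in the blood, Ly6CHi-RM, Ly6CLo-RM, KN-RM, KC-N and KC-H lists. The Cxcl10 start peak scored 69, 87, 82, 53, 92 and 101, and the Ifit1 start peak 59, 60, 51, 26, 44 and 85, in the same order.

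Oasl1, a relative of the 2′-5′ oligoadenylate synthetases, separated the F4/80-high lists from the rest. It had 3, 3 and 3 peaks in the blood, Ly6CHi-RM and Ly6CLo-RM lists and 5, 6 and 9 in KN-RM, KC-N and KC-H. Every additional region lay inside the gene, downstream of the start. The region 3.73 kb in, chr5:114926853-114927087, scored 43, 67 and 83 in KN-RM, KC-N and KC-H, and the nearest peak centre in any other list was 3696 bp away. Regions 2.04 and 5.13 kb in were likewise held by those 3 lists alone. A region 228 bp before the start had the reverse pattern, with scores of 47, 39 and 35 in the blood, Ly6CHi-RM and Ly6CLo-RM lists and no peak in the F4/80-high lists. The nearest peak centre in the F4/80-high lists was 231 bp away, in the start region that all 6 lists held.

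Other effectors had similar counts on both sides. Rsad2, which encodes the antiviral enzyme viperin, had 6, 6, 3, 2, 6 and 6 peaks in the blood, Ly6CHi-RM, Ly6CLo-RM, KN-RM, KC-N and KC-H lists, so its low counts were in Ly6CLo-RM and KN-RM. Its neighbour Cmpk2, a mitochondrial nucleotide kinase, had 1 to 2. Ifit2, which promotes death of infected cells, had 3 to 5, Oas3, another oligoadenylate synthetase, 2 to 3, Oas2 1 in every list, Oasl2 1 to 3, Zbp1, a sensor of Z-form nucleic acid, 3 to 7, and Bst2, the tether that holds budding virus at the membrane, 1 to 2. Mx1, a dynamin-like GTPase that is a pseudogene in the RefSeq table of this strain's genome, had 1 peak in the blood, Ly6CHi-RM, Ly6CLo-RM and KC-N lists and 0 in KN-RM and KC-H.

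Among sensors and signalling proteins, Trim25 held the most peaks of any member. Trim25 attaches ubiquitin in the RIG-I pathway, and it had 5, 6 and 5 peaks in the blood, Ly6CHi-RM and Ly6CLo-RM lists and 7, 12 and 16 in KN-RM, KC-N and KC-H. Its region 25.0 kb past the start, chr11:89024276-89024518, was the best-scored member region of all 6 lists, with scores of 164, 181, 141, 82, 123 and 183. That places it in the top 3.35, 2.18, 4.47, 5.33, 3.46 and 3.28% of those lists. The F4/80-high lists added a region 2.41 kb inside the gene, chr11:89001685-89001935, with scores of 44, 62 and 55 in KN-RM, KC-N and KC-H and no peak in the other 3. Of the 16 regions in KC-H, 6 were in no other list.

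**Figure D2:**
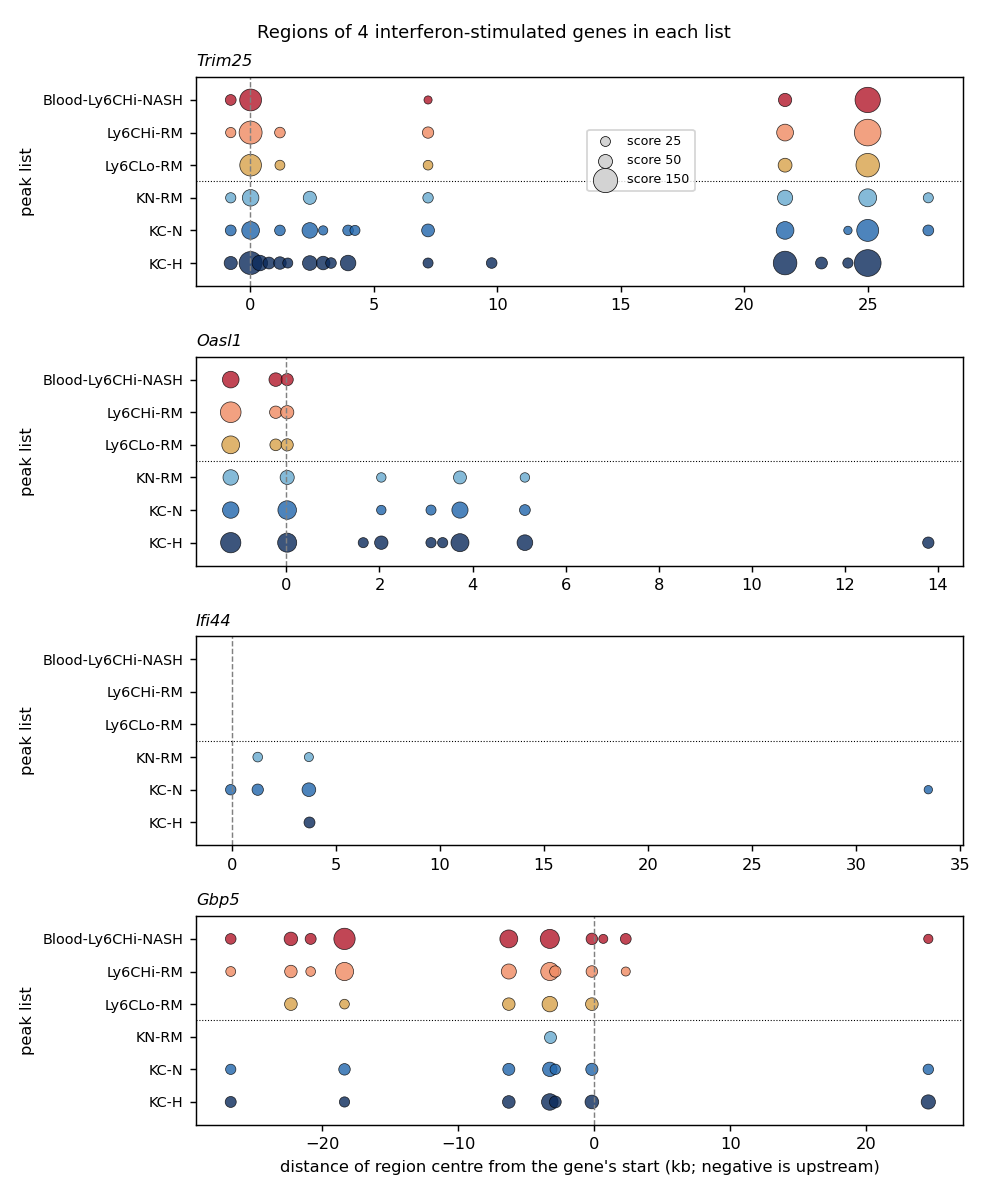
Regions assigned to Trim25, Oasl1, Ifi44 and Gbp5 by distance of the region centre from the gene's start in kb (x axis; negative is upstream), one row per peak list, with circle area proportional to the authors' score. The blood and CD11b-high lists stand above the dotted line and the F4/80-high lists below it. Oasl1 has regions at 2.04, 3.73 and 5.13 kb below the line only, Ifi44 has none above it, and KN-RM keeps only the Gbp5 region 3.27 kb upstream.

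The remaining sensors and signalling genes had similar numbers on both sides. Ifih1, the sensor MDA5 of long double-stranded RNA, had 7, 5, 6, 4, 8 and 9 peaks in the blood, Ly6CHi-RM, Ly6CLo-RM, KN-RM, KC-N and KC-H lists. Dtx3l, a ubiquitin ligase that works with Parp9, had 9, 7, 5, 4, 8 and 10. Parp14, an ADP-ribosyltransferase next to them, had 7, 4, 3, 3, 4 and 9. All 3 had their lowest count in KN-RM, tied with Ly6CLo-RM at Parp14, and their highest in KC-H. Dhx58, the sensor LGP2, had 2 to 4, Ifi204, a DNA sensor, 2 to 3, Ifi35 1 to 2 and Parp9 2 to 3.

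In the ISG15 system the number of peaks was constant at the modifier itself and varied at its removal enzyme. Isg15, a ubiquitin-like protein, had 1 peak in every list, over the 3 overlapping elements printed above, with scores of 42, 52, 36, 33, 43 and 59 in the blood, Ly6CHi-RM, Ly6CLo-RM, KN-RM, KC-N and KC-H lists. Usp18, the protease that takes ISG15 off proteins and dampens receptor signalling, had 8, 5 and 6 peaks in the first 3 lists, and 1, 3 and 6 in the F4/80-high lists KN-RM, KC-N and KC-H. The 1 region left in KN-RM was at a gene end and scored 52 there, and 69 to 133 in the other lists. Herc6, a ligase of the system in mice, had 6, 5 and 5 peaks against 3, 4 and 4.

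The guanylate-binding proteins, GTPases that attack the vacuoles of intracellular microbes, had their lowest counts in KN-RM, tied with Ly6CLo-RM at Gbp3 and with KC-H at Gbp2. Gbp5 had 10, 9 and 5 peaks in the blood, Ly6CHi-RM and Ly6CLo-RM lists, 1 in KN-RM, and 7 in both KC-N and KC-H. The 1 region kept was 3.27 kb before the start, chr3:142493549-142493777, and scored 37 in KN-RM against 53 to 93 elsewhere. Absent from KN-RM were the start peak over the element printed above and the regions 6.29 and 18.4 kb upstream, each of which all 5 other lists held. KN-RM was also the shortest list. With every list cut to its length by score, the blood and Ly6CHi-RM lists lacked the Gbp5 start peak too. The region 18.4 kb upstream scored 116 in the blood list and 85 in Ly6CHi-RM, against 24 to 34 in Ly6CLo-RM, KC-N and KC-H. Gbp3 had 6, 3, 2, 2, 5 and 8 peaks and Gbp2 5, 5, 3, 2, 3 and 2, in the same order.

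Genes of antigen processing barely varied in peak count. Tap1, a subunit of the peptide transporter, had 2 peaks in every list but Ly6CLo-RM, which had 3. Psmb8, a subunit of the immunoproteasome, had 1 in every list, and Psmb9, another, had 5, 5 and 5 in the blood, Ly6CHi-RM and Ly6CLo-RM lists and 4, 4 and 4 in the F4/80-high lists. Xaf1, linked to cell death, had 1 in every list.

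Ifi44, an interferon-induced gene with antiviral activity, had no peak in the blood, Ly6CHi-RM and Ly6CLo-RM lists and 2, 4 and 1 in KN-RM, KC-N and KC-H. The region shared by the 3 F4/80-high lists lay 3.70 kb inside the gene, chr3:151746099-151746324, with scores of 21, 48 and 31 in KN-RM, KC-N and KC-H. In the other 3 lists the nearest peak centre was 234838 bp away, so the absence there does not come from a small shift. A region 1.24 kb in was held by KC-N (score 33) and KN-RM (24) and not by KC-H.

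Counts in every F4/80-high list exceeded those of every other list at Trim25, Oasl1 and Ifi44, which are 3 of the 33 members with any peak (9.09%) against 1.7% of genes. The reverse held at Herc6 and Psmb9, 2 of 33 (6.06%) against 13.8%.

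Seen by region, the 174 merged regions were shared among lists about as often as those of other genes. All 6 lists held 46 (26.4%, 20.4 to 33.4) against 25.4% of all regions, and 46 were in 1 list only (26.4% against 27.6%). The 3 F4/80-high lists alone held 8 (4.60%, 2.35 to 8.81) against 1.89%, at Oasl1 (3), Trim25, Ifi44, Ifih1, Parp14 and Dtx3l. The blood and CD11b-high lists alone held 9 (5.17%) against 5.72%, at Herc6 (2), Dhx58, Gbp2, Gbp5, Ifih1, Oasl1, Parp14 and Rsad2. The NASH Kupffer lists KC-N and KN-RM alone held 3 (1.72%) against 0.299%, at Ifi204, Ifi44 and Trim25, with scores of 15 to 33. With every list reduced to the length of KN-RM by score, F4/80-high lists alone held 5 of 90 member regions, 5.56% against 4.88% of all regions. The blood and CD11b-high lists alone held 0 of 90, against 3.96%. A count of 0 allows up to 3.33% by 3 counts of the total, and the Wilson limit of 4.09% lies above the background. With the better-scored 50% of every list, the F4/80-high lists alone held 5 of 78, 6.41% against 1.77%. With 1 gene per cluster they alone held 4 of 123 (3.25%, 1.27 to 8.06), an interval that contains the 1.89% of all regions. The share held by F4/80-high lists alone was thus near the background at equal list length. It was above it when each list was cut to its better-scored 50%.

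Regions of 1 list were mostly in KC-H. It alone held 28 member regions (16.1%, 11.4 to 22.3) against 9.84% of all regions, spread over 14 genes with 6 at Trim25 and 3 each at Ifit3, Oasl1 and Parp14. Of these, 25 lay inside the gene (89.3%, against 63.2% of all regions of KC-H alone). Their scores ran from 23 to 62 with a median of 29, close to the 30 of all such regions, and 1 reached the better-scored 50% of the list. At equal list length KC-H alone held 6 of 90 (6.67%) against 5.21%. The blood list alone held 10 (5.75% against 9.67%), KC-N alone 6 (3.45% against 2.13%), and Ly6CHi-RM and Ly6CLo-RM 1 each (0.575% against 1.81% and 3.93%). KN-RM alone held 0, which allows up to 1.72%, against 0.262%.

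KN-RM also lacked more of what the others shared, at members as elsewhere. Of 57 member regions held by the other 5 lists, KN-RM held 46 (80.7%, 68.7 to 88.9), against 81.8% of all such regions. The 11 missing ones were at Dtx3l, Gbp5, Ifi204, Ifih1, Psmb9 and Usp18. Each of the other lists held 97.9 to 100% of the member regions found in the remaining 5.

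For the 46 regions that all lists held, the order of signal within each list could be set side by side. Each region was given its percentile among the same 25441 regions, by the signal read as the authors' normalised tag count. The median percentile of the member regions was 39.6 in the blood list (25.8 to 52.1), 42.4 in Ly6CHi-RM (35.0 to 56.4), 45.7 in Ly6CLo-RM (29.0 to 54.8), 55.0 (44.7 to 68.2) for KN-RM, 55.4 (44.6 to 62.2) for KC-N and 48.3 (39.4 to 58.4) for KC-H. These intervals overlap, so the medians alone do not separate the populations.

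Region by region, however, the member regions leaned to the F4/80-high side. At 14 of 46 (30.4%, 19.1 to 44.8) the percentile in every F4/80-high list was above that in every other list, against 15.3% of all 25441 regions, and at 1 (2.17%, 0.385 to 11.3) it was below, against 16.7%. This count was made after the values had been seen. The 14 regions were at Oasl1, Parp14 and Rsad2 (2 each), and Dhx58, Gbp2, Gbp3, Herc6, Ifit2, Isg15, Oas3 and Trim25. By score in place of tag count, 13 were above (28.3% against 15.4%) and 2 below (4.35% against 16.1%).

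The widest of these differences were at starts and at distal regions alike. The Oasl1 start region stood at percentiles 10.7, 7.1 and 12.6 in the blood, Ly6CHi-RM and Ly6CLo-RM lists and at 65.3, 71.3 and 51.7 in KN-RM, KC-N and KC-H. The Gbp2 start region stood at 7.7, 22.1 and 33.6 against 54.0, 55.4 and 67.4. A region 21.6 kb past the Trim25 start, chr11:89020869-89021235, stood at 10.4, 27.1 and 23.1 against 81.6, 76.5 and 81.1. The Rsad2 start region stood at 20.9 in the blood list, at 59.4 and 66.1 in Ly6CHi-RM and Ly6CLo-RM, and at 71.3, 84.2 and 73.9 in the F4/80-high lists. The Isg15 start region had the smallest range of the 14, at 12.1, 18.9 and 21.6 against 47.3, 27.2 and 24. A Psmb9 region outside the 14, chr17:34174143-34174444, ranged more widely than these, from 1.2 in the blood list to 73.6 in Ly6CLo-RM. It stood at 40.0 in Ly6CHi-RM and at 36.7, 47.1 and 14.8 in KN-RM, KC-N and KC-H.

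The single region with the reverse order was 2.51 kb upstream of Ifit2, chr19:34548069-34548298, at 52.1, 40.7 and 33.1 in the blood, Ly6CHi-RM and Ly6CLo-RM lists and 10.3, 7.2 and 5.6 in KN-RM, KC-N and KC-H. A region 19.2 kb downstream of another RefSeq start of Ifit2, chr19:34570130-34570388, had the common order, at 5.6, 16.7 and 29.0 against 64.5, 64.2 and 61.5. Regions of the same gene thus did not all lean one way.

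**Figure D3:**
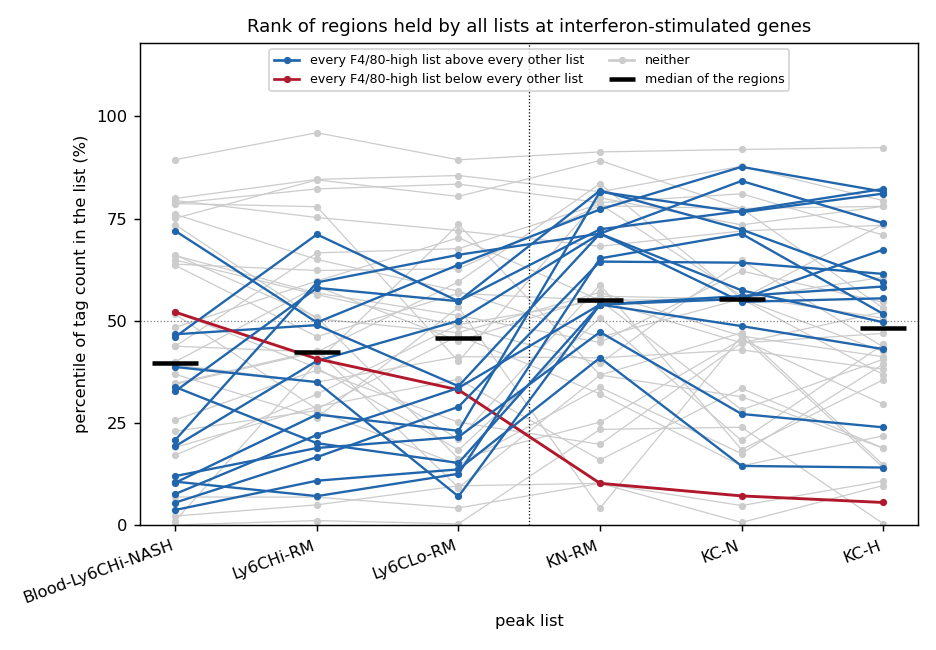
Percentile of the authors' tag count (y axis, %) for the 46 member regions that all 6 lists hold, each line being 1 region across the lists (x axis), with the median per list as a black bar. Blue lines are the 14 regions whose percentile in every F4/80-high list exceeds that in every other list, the red line is the 1 region with the reverse order, and grey lines are the rest.

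By median, start regions of these genes ranked lower than start regions in general. Within 1 kb of a RefSeq start, 22 member regions had median percentiles of 43.8, 46.1, 51.2, 56.0, 55.4 and 51.2 in the blood, Ly6CHi-RM, Ly6CLo-RM, KN-RM, KC-N and KC-H lists, against 68.3, 66.6, 68.8, 65.3, 64.2 and 68.0 for 9290 start regions of all genes. For the 25 member regions within 1 kb of a start or gene end, intervals were 46.0 to 71.3 in KN-RM and 45.4 to 71.3 in KC-N. Both include the median of all start regions, and the intervals of the other lists lie below it. Away from starts, 24 member regions stood at 36.3, 40.1, 34.9, 54.0, 55.0 and 43.9 against 40.9, 41.9, 40.5, 42.3, 42.9 and 40.6 for 16151 others.

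Pairs of lists were then compared for list-specific peaks, meaning peaks from the better-scored 50% of a list for which the complete second list has nothing that overlaps by even 1 bp. The 5 pairs share lists with one another, so their results are not independent. In Tim4-positive Kupffer cells the diet pair had few such peaks at members. KC-H had 2 of 59 absent from KC-N (3.39%, 0.935 to 11.5) against 5.69% of all high-scoring KC-H peaks, one 384 bp inside Trim25 and one 163 bp from an end of Parp14. Both lay within 373 bp of a KC-N peak centre. KC-N had 0 of 50 absent from KC-H, which allows up to 6.00%, against 3.73%.

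Among NASH Kupffer cells, KC-N had 3 of 50 absent from Tim4-negative KN-RM (6.00%, 2.06 to 16.2) against 6.32%. These were at Ifih1 (chr2:62654598-62654798, 8.44 kb upstream, score 41), Gbp3 (chr3:142561573-142561773, 1.32 kb past its nearest start, score 40) and Dtx3l. The other direction gave 0 of 36, which allows up to 8.33%, against 1.03%.

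Blood monocytes and Ly6C-high liver macrophages had few list-specific peaks, at these genes and in general. The blood list had 2 of 51 absent from Ly6CHi-RM (3.92%, 1.08 to 13.2) against 2.18%, at Gbp3 and Ifih1, both within 527 bp of a Ly6CHi-RM peak centre. The reverse gave 0 of 48, which allows up to 6.25%, against 1.67%.

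Ly6CHi-RM had 1 of 48 absent from Ly6CLo-RM (2.08%, 0.369 to 10.9) against 3.89%. It was the Rsad2 region chr12:26439485-26439685, 16.9 kb past the start, with a score of 49 and the nearest Ly6CLo-RM centre 11758 bp away. Ly6CLo-RM had 0 of 40 absent from Ly6CHi-RM, which allows up to 7.50%, against 2.96%.

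The pair that crosses from CD11b-high to F4/80-high cells in the NASH liver had the most. Ly6CLo-RM had 5 of 40 absent from KN-RM (12.5%, 5.46 to 26.1) against 18.9%, of which 3 were at Gbp5 (182 bp, 6.29 kb and 22.3 kb upstream, scores 41, 40 and 41), 1 at Usp18 (chr6:121251315-121251515, score 50) and 1 at Dtx3l. KN-RM had 4 of 36 absent from Ly6CLo-RM (11.1%, 4.41 to 25.3) against 5.39%. These were at Trim25 (chr11:89001716-89001916, score 44), Oasl1 (chr5:114926884-114927084, score 43), Parp14 (chr16:35844038-35844238, score 39) and Dtx3l (score 35), and KC-N and KC-H held all 4. At equal list length KN-RM again had 4 of 36, but beside 9.35% of all peaks, and Ly6CLo-RM had 0 of 23 beside 8%. Counted by gene, 4 of 22 members with a high-scoring KN-RM peak had one (18.2%) against 7.74% of genes, and 3 of 22 in the other direction (13.6%) against 29.3%. Every interval of the 10 member shares contained the share of all peaks.

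**Figure D4:**
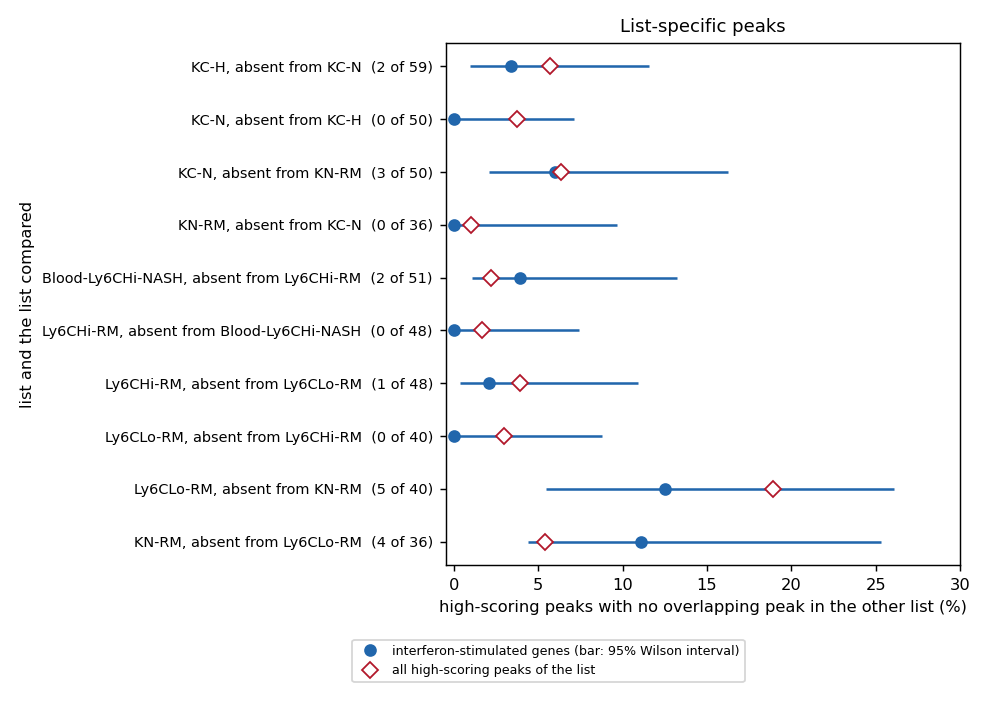
Share of high-scoring peaks (x axis, %) with no overlapping peak in the other list, for the 10 directions of the 5 list pairs (y axis, with the counts of member peaks). Blue points with 95% Wilson intervals are peaks of the interferon-stimulated genes, and open red diamonds are all high-scoring peaks of the list, which fall inside every interval.

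Receptors, kinases and transcription factors of the pathway had start peaks in nearly every list. All 7 receptor and kinase genes of a list of 33 other pathway genes had a start peak in every list, except Ifngr2, the second chain of the interferon-gamma receptor, in KN-RM. All 7 transcription factor genes had one in every list, among them Irf7, the factor that amplifies interferon production, with 3 to 4, and Irf9 with 1 to 3. Irf8, a factor of monocyte and macrophage identity, had 23, 20, 12, 15, 21 and 34 peaks in the blood, Ly6CHi-RM, Ly6CLo-RM, KN-RM, KC-N and KC-H lists, and Irf1 16, 19, 19, 18, 20 and 24. Socs3, a feedback inhibitor, had 15, 16 and 16 peaks in the first 3 and 5, 6 and 12 in the F4/80-high lists. Of the 11 sensors and adaptors, 11, 10, 10, 8, 9 and 11 had a start peak in that order. Ifnb1, which encodes interferon beta, had 2 to 8 peaks assigned by distance and none at its start in any list, and Ifna2 had none.

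List-specific peaks of those 33 genes were counted in the same pairs, with the share of all peaks beside each. KC-H had 4 of 139 (2.88% beside 5.69%) and KC-N 1 of 119 (0.840% beside 3.73%) against each other. KC-N had 5 of 119 (4.20% beside 6.32%) and KN-RM 0 of 81 (beside 1.03%). The blood list had 4 of 127 (3.15% beside 2.18%). Ly6CHi-RM in that pair had 6 of 126 (4.76%, 2.20 to 10.0, beside 1.67%). Ly6CHi-RM had 2 of 126 (1.59% beside 3.89%) and Ly6CLo-RM 2 of 112 (1.79% beside 2.96%). In the last pair Ly6CLo-RM had 15 of 112 (13.4% beside 18.9%) and KN-RM 3 of 81 (3.70% beside 5.39%). For the interferon-stimulated genes the last pair gave 12.5 and 11.1%, and the difference between the gene sets was not tested.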

How the data were processed

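ATAC-seq was done on 12 libraries, 2 in each of 6 groups, and the authors deposited 1 peak list per group, made from both libraries and named for an irreproducible discovery rate, per the labels. The submitters' processing notes name Bowtie2, HOMER, DESeq2, mm10 and GRCm38, without versions or roles. Read depth, read filters and any transposase shift were not given in the sources used, so the precision of single peaks is unknown. Each deposited row holds a position, a signal, read here as the authors' normalized tag count, and a whole number, read as the pipeline's score. The columns have no header, so both readings were inferred. The scaling of the signal is not stated, so it was ranked within lists and never compared between them as a height. Nearly all peaks were 200 bp wide.

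The members and gene lists were chosen with earlier results of these data known. A peak was given to every gene containing its centre, otherwise to the nearest protein-coding gene within 100 kb (RefSeq, GRCm38.p6, 21900 genes). That table has no strand, and strand and starts came from RefSeq promoter windows, which 27 of the 36 members have. Peaks overlapping by 1 bp were merged into regions. A list-specific peak is in the best-scored 50% of its list. Values in every list are given for members whose start peak is in some lists, those with a list-specific peak, and the 5 with most and the 5 with fewest peaks; other members are given by range. Regions are given by position for the best-scored member region of each list and list-specific ones with no centre of the other list within 1 kb. Positions of printed elements, of regions with a shared pattern of lists and of the widest rank differences were chosen after their values were seen. Intervals are 95% Wilson intervals for shares and order-statistic intervals for medians, and they cover counting error only. Beside a count of 0, the share it allows is 3 counts of the total, not the Wilson limit. With 1 list per group no test was possible. Alternatives were other overlap, list length, score, gene window, assignment, ranking and start distances. Functions were tested on simulated lists. Computations used pandas 2.3.3 and numpy 2.4.6 under Python 3.11.15, with scipy 1.17.1 for intervals and matplotlib 3.10.9 for plots. Values of 1 pathway gene are not reported here.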

Additional observations from a re-analysis of the deposited data

How the results depend on the processing

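No paired analysis was possible because each list was made from both libraries of a group and holds no value per library, which also prevented leaving out replicates. Of 184 values under an alternative, 149 stayed inside the interval of the reported value and 35 did not. List-specific shares are limited by few peaks. With lists of equal length they were 0% for KC-H against KC-N (2.60% of all peaks), KC-N against KN-RM (1.65%), blood against Ly6CHi-RM (1.64%) and Ly6CLo-RM against KN-RM (8%). With the best-scored 25% they were 0% for these (1.3, 0.847, 0.873 and 5.07%) and for Ly6CHi-RM against Ly6CLo-RM (0.709%) and KN-RM against Ly6CLo-RM (2.29%). With no centre of the other list within 1 kb they were 0% for KC-H (3.10%) and the blood list (0.848%), and ranked by tag count 0% for Ly6CHi-RM against Ly6CLo-RM (3.44%). With all peaks they were 31.3% for KC-H (31.2%) and 11.5% for KC-N (13.5%) against each other, 40.4% for KC-N against KN-RM (36%), 19.6% for blood (21.4%), 20.0% for Ly6CHi-RM against Ly6CLo-RM (23.6%) and 36.3% for Ly6CLo-RM against KN-RM (46.6%). With 1 gene per cluster the member shares of peaks were 0.113, 0.112, 0.106, 0.128, 0.142 and 0.145% in the blood, Ly6CHi-RM, Ly6CLo-RM, KN-RM, KC-N and KC-H lists, because fewer genes were counted. At equal list length, all 6 lists held 38.9% of member regions (32.4% of all), the blood and CD11b-high lists alone 0% (3.96%), 1 list only 15.6% (23.6%) and KC-H alone 6.67% (5.21%). With the best-scored 50% of every list, the blood and CD11b-high lists alone held 2.56% (5.20%) and KC-H alone 8.97% (9.22%). Start peaks of the blood list fell to 70.4% of members at equal list length (44.1% of genes), and those of KC-H were at 96.3% with 500 or 2500 bp around the start (52.4 and 55.8% of genes). The ISRE with 1 mismatch was in 88.9% of windows. The cause of the other moves was not tested.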
